A study of Mus musculus with 36 samples.

Results

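The collagen chain genes are the genes that encode the alpha chains from which every collagen is assembled. Their members were taken by name alone, as the rows of the gene table whose symbol is Col followed by a number, the letter a and a number, which gave 41 genes of 16415 in the table. Of these, 32 had an FPKM (fragments per kilobase of transcript, scaled to the mapped fragments of the library, a level corrected for transcript length and depth) of at least 1 in at least 3 of the 18 libraries and were tested. The remaining 9 are given by their FPKM only. By class the members were 11 fibrillar, 6 basement membrane, 2 network-forming (type VIII) and 8 FACIT genes (fibril-associated collagens with interrupted triple helices), with 14 others. The others were 5 type VI (beaded filament), 1 type VII (anchoring fibril), 4 transmembrane, 2 multiplexin and 2 remaining genes. Col9a1, Col10a1 and Col6a4 were not analysed here.

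The libraries came from the heart left ventricles of C57BL/6 mice. The study's methods describe 8-week-old males at the operation. In the myocardial infarction (MI) groups the left anterior descending coronary artery was tied, and sham mice went through the operation without the occlusion. Both were examined at an early (1 day), a middle (1 week) and a late (8 weeks) stage after surgery, with 3 mRNA libraries per group, 18 in all. Ventricle tissue was pooled, and the number of animals behind a library is not given in the sources used here, so p-values refer to the spread among libraries, which may be technical. No transgene or drug was used, and stage, age and time since surgery cannot be told apart in comparisons across stages.

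A collagen molecule is a triple helix of alpha chains, and the chains of one type are often the products of different genes that must be made together. Fibrillar collagens form the tension-bearing fibrils of the heart's interstitium and of scar, type IV forms the sheet of the basement membrane around cardiomyocytes and vessels, and the other classes sit on fibrils, link them to cells or form networks of their own. In the heart most of the fibrillar chains are known to be made by fibroblasts, which become activated after an infarct and lay down the scar.

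Sequences before the start of some of these genes are shown because the chains behaved differently after MI: Col1a2 and Col3a1 did not pass the test at 1 day and rose far above sham at 1 week, Col8a1 was already higher at 1 day, and Col6a1 was lower at 1 day. Each run is the 250 bases before the annotated start, 5′ to 3′ on the gene's own strand, from RefSeq on GRCm38.p6, a release of the assembly also called mm10. Promoter entries were found for 32 of the 41 members. Capitals mark 3 short motifs searched on both strands: the letters CCAAT, which read ATTGG when the motif lies on the opposite strand, the letters TATAAA of a TATA box, which then read TTTATA, and the letters GGGCGG of a GC box, which then read CCGCCC.
Col1a2, chr6:4505368-4505617, plus strand: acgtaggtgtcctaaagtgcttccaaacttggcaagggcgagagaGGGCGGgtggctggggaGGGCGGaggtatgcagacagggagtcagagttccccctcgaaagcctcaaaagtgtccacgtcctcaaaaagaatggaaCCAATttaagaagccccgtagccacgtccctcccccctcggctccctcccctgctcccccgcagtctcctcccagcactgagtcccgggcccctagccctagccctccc
Col3a1, chr1:45311288-45311537, plus strand: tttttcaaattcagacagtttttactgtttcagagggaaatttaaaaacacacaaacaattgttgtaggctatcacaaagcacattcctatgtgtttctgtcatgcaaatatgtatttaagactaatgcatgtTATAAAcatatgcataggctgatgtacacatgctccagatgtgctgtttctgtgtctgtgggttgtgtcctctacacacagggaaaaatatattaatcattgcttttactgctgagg
Col6a1, chr10:76726045-76726294, minus strand: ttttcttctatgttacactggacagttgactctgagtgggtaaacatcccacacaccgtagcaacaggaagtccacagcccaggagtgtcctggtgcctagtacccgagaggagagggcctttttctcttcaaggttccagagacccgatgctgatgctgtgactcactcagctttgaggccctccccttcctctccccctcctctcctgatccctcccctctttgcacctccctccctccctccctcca
Col8a1, chr16:57754738-57754987, minus strand: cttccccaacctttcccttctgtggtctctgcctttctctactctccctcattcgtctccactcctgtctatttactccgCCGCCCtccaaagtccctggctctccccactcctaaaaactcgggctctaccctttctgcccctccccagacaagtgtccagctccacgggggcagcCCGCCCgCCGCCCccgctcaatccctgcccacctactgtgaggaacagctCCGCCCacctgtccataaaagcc

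Col1a2 held 1 CCAAT and 2 GGGCGG matches, Col8a1 held 4 matches of the GGGCGG motif, Col3a1 held 1 TATAAA and Col6a1 held no match in this window. Over all 32851 promoters of the table, 33.8% held CCAAT, 12.4% held TATAAA and 32.7% held GGGCGG in the same window. Among the 32 collagen genes with an entry these were in 11, 4 and 20. A match describes the letters only. By RefSeq the genes of type IV lie in pairs that start back to back. Col4a1 (chr8:11198423-11312889) and Col4a2 (chr8:11312805-11449287) share 85 bases at their starts, and Col4a4 (chr1:82448419-82587034) and Col4a3 (chr1:82586921-82722059) share 114. Reads from these shared bases cannot be assigned to 1 of the genes without strand, and how strand was counted is not given in the sources used here. Col4a6 and Col4a5 start 1274 bases apart on chromosome X without overlap. Col3a1 (chr1:45311538-45349706) and Col5a2 (chr1:45374331-45503282) are neighbours on chromosome 1, with 24624 bases between them.

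The deposited FPKM summed to 298162 to 403190 per library, and the number of reads behind them is not given, so the depth is unknown. All 8 cardiomyocyte markers were detected in every library. Library MI 3 of 8 weeks stood apart: it had the highest FPKM of its group for 32 of the 32 tested collagen genes, and MI 1 of 8 weeks had the lowest for 29. Marker levels differed between the same libraries, as summed FPKM in MI 1, 2 and 3: 1.89, 314 and 1373 for the 5 adipocyte markers in the table, 13.3, 26.3 and 200.4 for 6 mesothelial and epicardial markers, 26216, 18099 and 11435 for 8 cardiomyocyte markers and 296, 409.5 and 681 for 8 markers of activated fibroblasts. Of 8 skeletal muscle markers, whose mean log2(FPKM + 1) was 3.31, 2.54 and 5.15 in these libraries and at most 2.42 in sham of 8 weeks, 5 were tested. At 8 weeks 4 were called higher and 1 (Ckm, which the heart also expresses) lower, and their summed FPKM was 1105, 633 and 685, beside 1053 to 1321 in sham. The part of these cell types in the collagen values was not tested. Below, the counts and a few genes at 8 weeks are also given without MI 3, and the other 8-week differences include it. In such bulk samples, fewer cells of a type and less RNA per cell cannot be told apart.

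As a share of all FPKM the collagen genes were under 1% in every sham library and several percent at 1 week of MI. Their sum was 0.0770, 0.0887 and 0.0937% of the summed FPKM in the sham libraries at 1 day and 0.127, 0.124 and 0.130% in MI. At 1 week it was 0.148, 0.122 and 0.142% in sham and 3.74, 3.84 and 3.18% in MI. At 8 weeks the shares were 0.0817, 0.0806 and 0.0844% in sham and 0.232, 0.395 and 0.854% in MI. All MI libraries lay above all sham libraries of their stage, and the MI libraries of 8 weeks lay between the sham libraries and those of 1 week. These shares depend on the sum they are taken of. With the most abundant non-collagen genes left out of it, they were 0.123 to 0.147% in sham and 0.171 to 0.182% in MI at 1 day. They were 0.199 to 0.238% and 4.11 to 4.82% at 1 week, and 0.131 to 0.137% and 0.367 to 1.15% at 8 weeks.

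**Figure D1:**
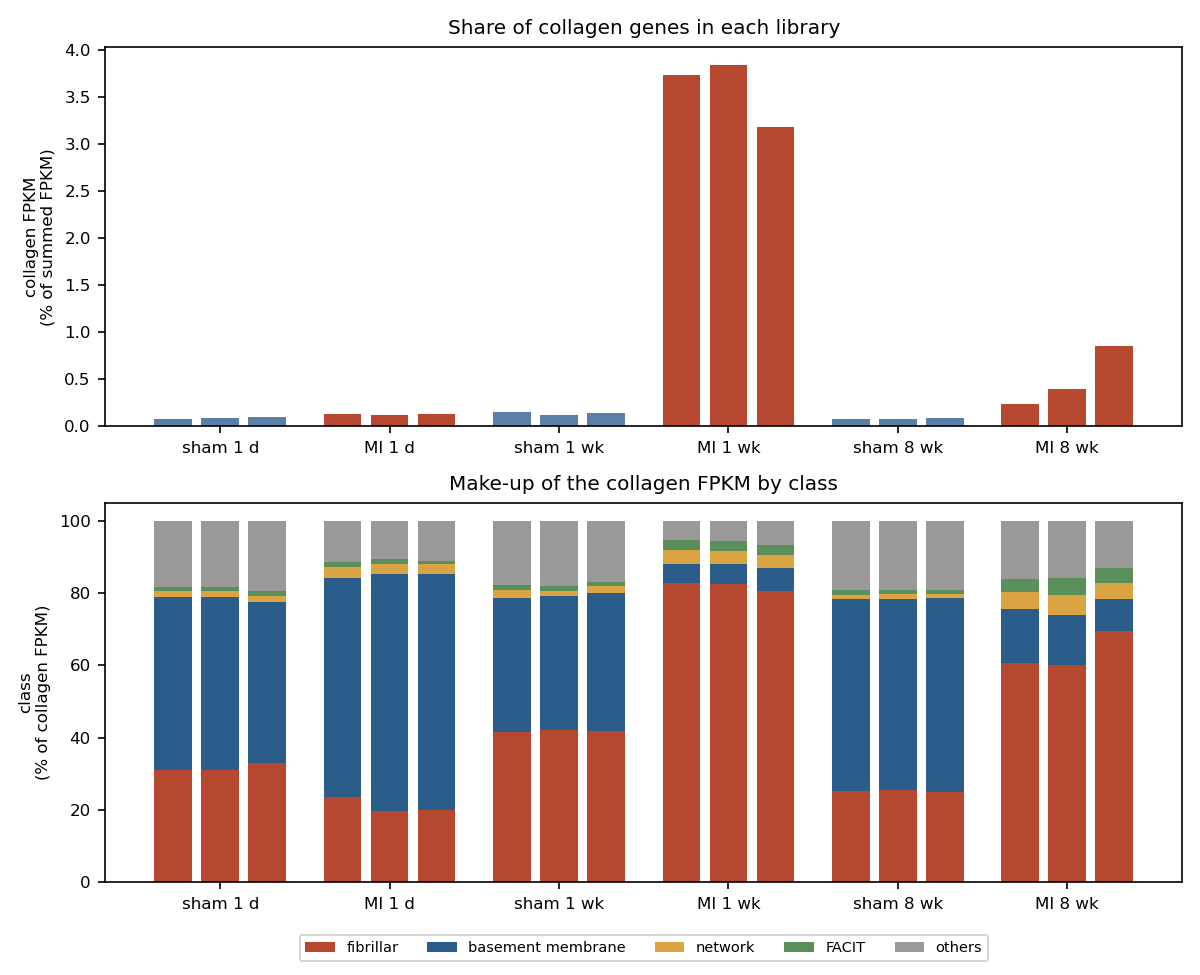
Top, FPKM of the 41 collagen genes as percent of the summed FPKM of each library, 1 bar per library, sham in blue and MI in red. Bottom, the same collagen FPKM divided into classes, as percent. The MI libraries of 1 week reached 3.18 to 3.84% and were the only ones in which fibrillar chains took over 80% of the collagen FPKM.

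The make-up of the collagen mRNA differed between stages. Fibrillar chains took 31.0, 31.1 and 33.1% of the collagen FPKM in sham and 23.6, 19.6 and 19.8% in MI at 1 day, while basement membrane chains took 48.0, 47.8 and 44.5% and 60.6, 65.9 and 65.6%. At 1 week of MI the fibrillar share was 82.7, 82.4 and 80.7%, against 41.5, 42.2 and 41.9% in sham. At 8 weeks it was 60.5, 60.0 and 69.5% in MI and 25.3, 25.4 and 24.8% in sham. So MI libraries lay below sham at 1 day and above it at the later stages for the fibrillar share, and in no stage did the groups overlap. By mean FPKM, Col4a1 was the leading chain in every sham group and in MI at 1 day, and Col3a1 in MI at 1 week and at 8 weeks. The libraries of these genes overlapped in sham at 1 week and were apart in the other 5 groups.

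**Figure D2:**
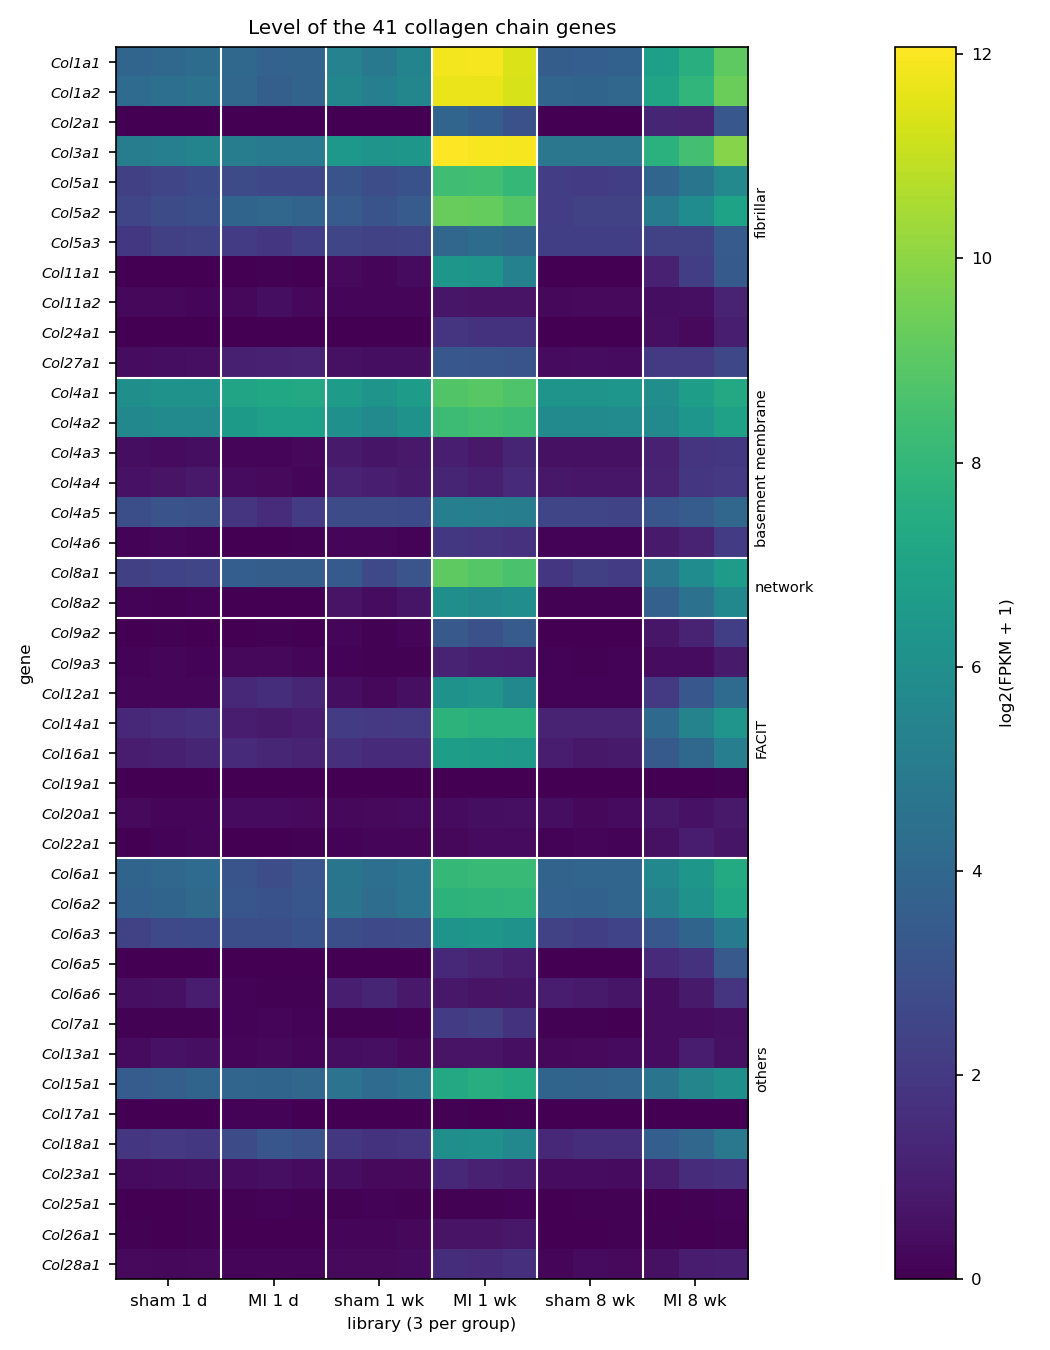
Level of the 41 collagen genes, as log2(FPKM + 1) by colour, in 18 libraries (columns, 3 per group) and grouped by class (rows). The MI libraries of 1 week are brightest for most fibrillar, network, FACIT and type VI rows, and the third MI library of 8 weeks is brighter than the other two of its group.

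MI was compared with sham of the same stage to ask how ventricular gene expression changes as the infarct ages. The test was limma on log2(FPKM + 1) over 12858 genes, with Benjamini-Hochberg adjustment over all of them and a threshold of 0.05, and all differences below are on that log2 scale, where those of low genes are smaller than the ratio of FPKM. At 1 day 7 collagen genes of 32 were higher (21.9%) and 4 lower (12.5%), where 39.7% of all tested genes were higher and 30.6% lower, so both shares were below those of all tested genes. At 1 week 29 of 32 were higher (90.6%) and 0 lower, with 72.8% and 16.5% over all tested genes. At 8 weeks 30 were higher (93.8%) and 0 lower, with 70.4% and 10.6% over all. By an unadjusted p under 0.05, limma gave 0 lower at either later stage as well. The filter used all 18 libraries, so some chains passed it only through MI libraries of the later stages. Among these were Col2a1, Col4a6, Col6a5, Col7a1, Col9a2 and Col11a1, which were below 1 FPKM in every sham and 1-day library. For such chains a higher level in MI was partly set by the filter. The chains that did not pass are counted without it further below. Other scalings gave 7 or 8 lower genes at 1 day: 7 higher and 8 lower after quantile normalization (background 34.2% and 42.0%) and with the authors' normalized values (34.1% and 41.9%), and 7 and 7 with median-ratio factors (39.0% and 37.9%). With each stage fitted alone there were 8 and 10 (44.1% and 33.9%). Col4a4 and Col14a1 were among the added lower genes in all 4 of these fits, Col4a3 and Col28a1 in all but that with median-ratio factors, Col1a2 with median-ratio factors and with each stage alone, and Col4a6 with each stage alone. The median difference of the 32 genes was -0.0021 at 1 day, 3.25 at 1 week and 1.88 at 8 weeks, beside 0.09, 0.79 and 0.52 over all tested genes. Without any fit, 9 of the 32 genes had all MI libraries above all sham libraries at 1 day and 12 had all below, where 45.4% and 35.9% of all tested genes did. At 1 week 29 were above and 1 below (74.8% and 17.4% over all), and at 8 weeks 29 above and 0 below (66.3% and 10.9%).

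At 1 week, beside these counts, all 8 activated fibroblast markers were higher in MI, with summed FPKM of 4048 to 5177 against 76.1 to 82.8 in sham. At 1 day 5 of the 8 were higher (131 to 152 against 54.3 to 60.9), and at 8 weeks all 8 (296 to 681 against 45.4 to 48.2). The resting fibroblast markers, 6 genes, gave 1 higher and 2 lower on the first day, then 4 and 1 after a week, and 5 and 0 at the end. Cardiomyocyte markers were called lower in 8 of 8 cases at each of the first 2 stages and in 5 of 8 at the last. Of 5 tested macrophage markers 2, 5 and 5 were higher at the stages in turn, and of 6 neutrophil markers 6, 5 and 4. Their part in the collagen values was not tested.

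**Figure D3:**
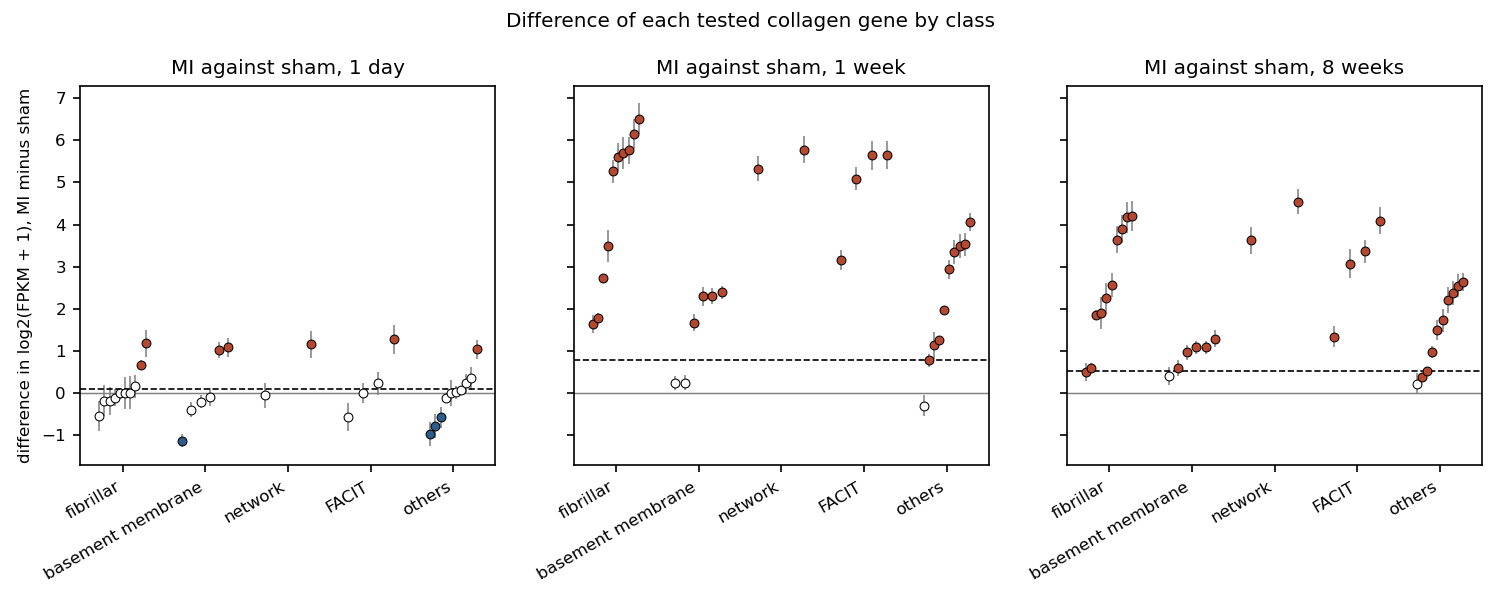
Difference in log2(FPKM + 1) between MI and sham (vertical axis) for each tested collagen gene, by class, in 1 panel per stage; bars, standard error. Red points were called higher and blue points lower, open points were not called, and the dashed line is the median of all 12858 genes. At 1 day the points lie between -1.14 and 1.28, at 1 week between -0.30 and 6.52 and at 8 weeks between 0.22 and 4.54.

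The main fibrillar chains, Col1a1 and Col1a2 of type I and Col3a1 of type III, did not pass the test at 1 day and held the highest collagen FPKM in MI at 1 week. At 1 day Col1a1 stood at 14.6, 15.3 and 18.4 FPKM in the sham libraries and at 15.7, 12.8 and 13.5 FPKM in the MI libraries. The 1-week FPKM of Col1a1 were 39.5, 27.982 and 43.3 in sham and 3755, 3845 and 2768 in MI. At 8 weeks they were 10.9, 11.2 and 12.5 in sham and 112, 190.3 and 534 in MI. The groups overlapped at 1 day, and at both later stages every MI library was above every sham library. Col1a1 differed by 6.52 ± 0.37 (SE; limma adjusted p = 4.76e-10) at 1 week, the largest difference of all collagens, and by 4.17 ± 0.37 (adjusted p = 1.24e-07) at 8 weeks, while at 1 day the difference was -0.19 ± 0.37 (adjusted p = 0.667).

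For Col1a2 the 1-day FPKM were 17.9, 19.987 and 22.5 in sham and 15.043, 11.7 and 13.4 in MI. They were 45.7, 35.8 and 46.1 in sham and 3337, 3380.3 and 2583 in MI at 1 week. At 8 weeks sham held 14.1, 13.7 and 14.6 and MI 133, 246 and 648. All MI libraries of 1 day were below all sham libraries, yet the difference of -0.56 ± 0.36 did not pass (adjusted p = 0.177); with the 1-day libraries fitted alone it did, and so it did with median-ratio factors. The differences at 1 week and 8 weeks were 6.15 ± 0.36 (adjusted p = 5.97e-10) and 4.20 ± 0.36 (adjusted p = 9.64e-08).

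Col3a1, the chain of the thinner fibrils that type III forms with type I, was the most abundant collagen mRNA after 1 week of MI. Its sham libraries held 86.8, 75.5 and 83.5 FPKM and its MI libraries 4303, 4025 and 3813 FPKM at that stage. At 1 day they held 32.2, 36.1 and 42.0 and 34.2, 30.3 and 31.8. At 8 weeks they held 26.4, 26.4 and 26.4 and 208, 350.4 and 934. The groups overlapped only at 1 day, where the difference was -0.18 ± 0.33 (adjusted p = 0.642). The later differences were 5.61 ± 0.33 (adjusted p = 7.36e-10) and 3.90 ± 0.33 (adjusted p = 9.82e-08).

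**Figure D4:**
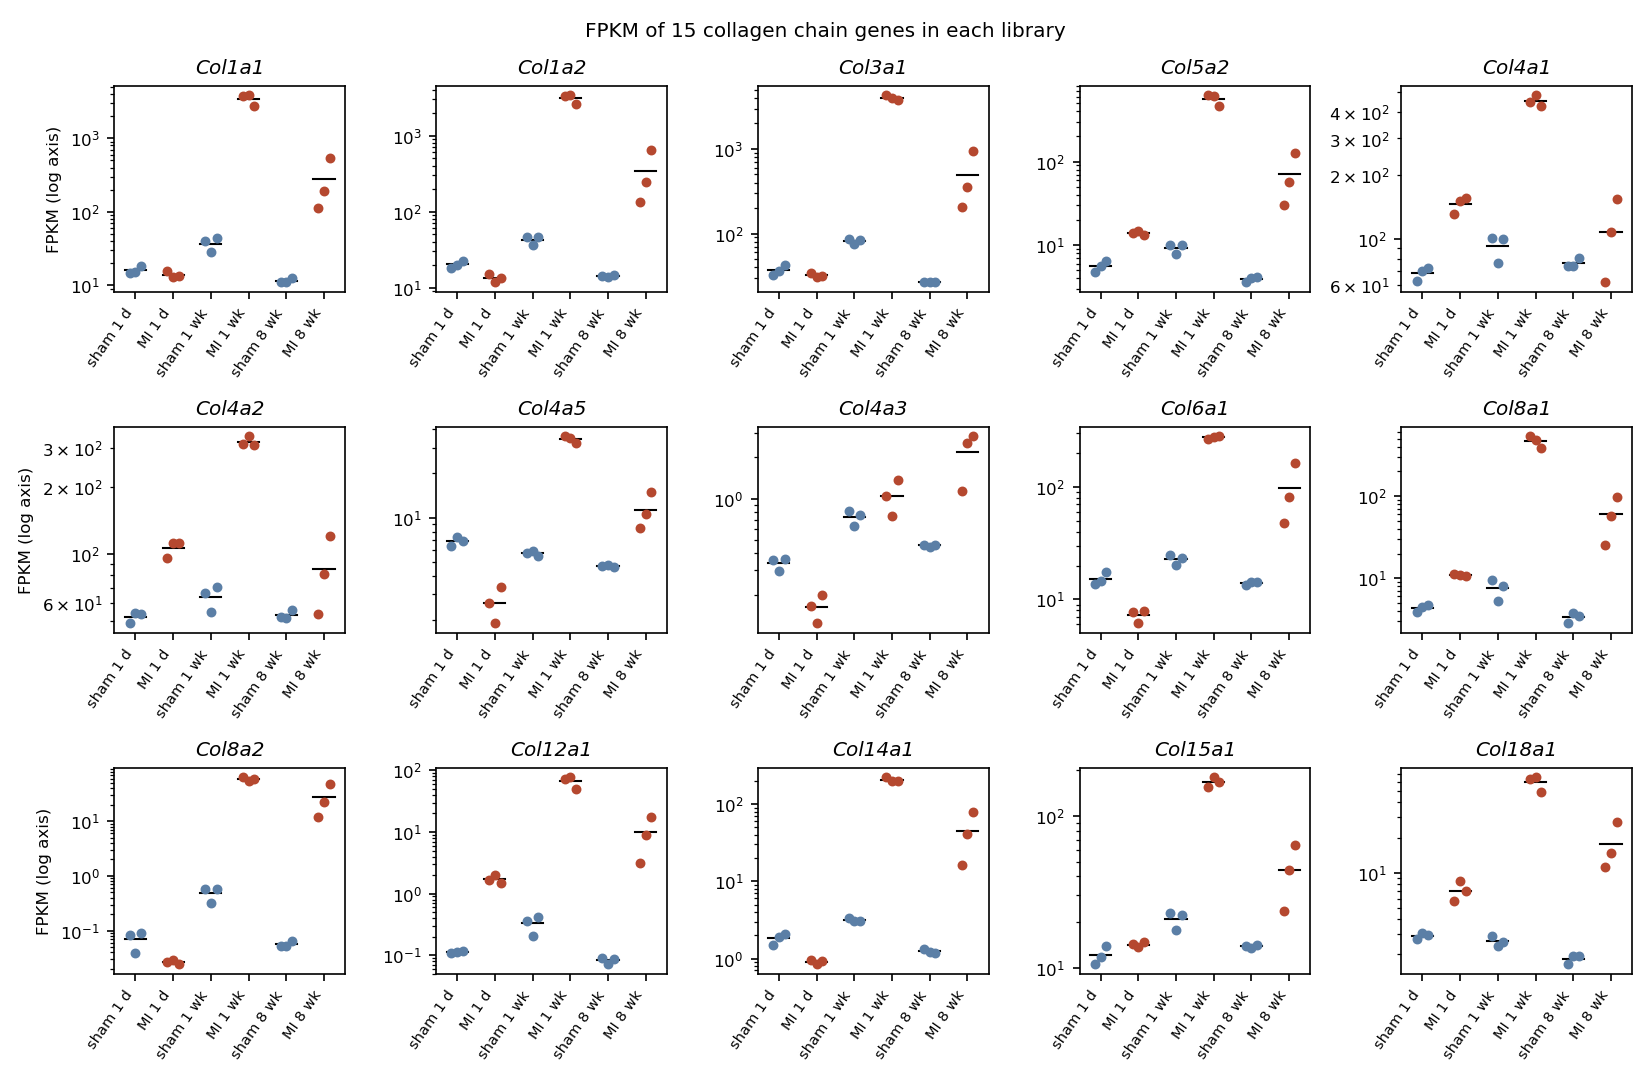
FPKM on a log axis for 15 collagen genes in each library (points; sham blue, MI red) with the mean of each group (bar). Most panels peak in MI at 1 week; Col4a3 is highest in MI at 8 weeks, and Col4a5 and Col6a1 have their lowest libraries in MI at 1 day.

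Types V and XI are minor fibrillar collagens that start and limit the growth of fibrils. Col5a2 was higher in MI already at 1 day, with 4.71, 5.70 and 6.49 FPKM in sham and 14.1, 14.6 and 13.3 in MI, a difference of 1.18 ± 0.32 (adjusted p = 0.00372). The middle stage gave 10.1, 7.81 and 10.1 in sham and 620.3, 603 and 461 in MI. The late stage gave 3.57, 4.01 and 4.13 in sham and 30.1, 57.1 and 125 in MI. No group pair overlapped, and the later differences were 5.76 (adjusted p = 4.32e-10) and 3.64 (adjusted p = 1.27e-07). Its partner chain Col5a1 overlapped between the groups at 1 day, with 3.88, 4.71 and 5.58 FPKM in sham and 5.74, 5.09 and 5.14 in MI. It then stood at 325, 345 and 260.1 in MI of 1 week against 7.82, 6.18 and 7.24 in sham, a difference of 5.26 (adjusted p = 3.36e-10). Col5a3 gained less, 1.63 at 1 week (adjusted p = 2.32e-06) and 0.50 at 8 weeks (adjusted p = 0.0394), and the last call was lost without MI 3 (0.14, adjusted p = 0.289), without any 1 of the sham libraries of that stage, and with all 3 other scalings, which gave -0.16 to -0.09.

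The chains known from cartilage fibrils were close to 0 in sham. Col11a1 had 0.255, 0.105 and 0.282 FPKM in sham and 81.5, 75.0 and 38.9 in MI at 1 week, a difference of 5.70 ± 0.38 (adjusted p = 1.86e-09). At 8 weeks it had 0.0113, 0.00443 and 0 in sham and 1.19, 3.68 and 9.54 in MI (2.24, adjusted p = 6.74e-05). Col2a1, the main fibrillar chain of cartilage, was at 14.2, 10.998 and 6.97 FPKM in MI of 1 week and at 1.35, 1.26 and 8.69 in MI of 8 weeks, and the highest value in any sham or 1-day library was 0.0176. The FACIT chain Col9a2, a partner of type II in cartilage, had 9.52, 6.94 and 10.1 FPKM in MI of 1 week and 0.650, 1.20 and 3.68 at 8 weeks, with 0.127 as the highest sham or 1-day value. All of these were called higher at both later stages. Of 10 chondrocyte markers listed, 5 were in the table and 4 were tested. These 4 were higher at 1 week and at 8 weeks, where 72.8% and 70.4% of all tested genes were, and 0 were at 1 day. From 1 week to 8 weeks the difference of MI minus sham moved down for Sox9 and Acan and up for the other 2. The summed FPKM of the 5 was 1.72 to 2.58 in sham and 265 to 320.3 in MI at 1 week. At 8 weeks it was 0.996 to 1.54 in sham and 277 to 1020.2 in MI. Their part in these values was not tested. The other fibrillar chains were Col27a1, higher at all 3 stages (0.66, 2.72 and 1.86), and Col24a1, higher at the later ones (1.78 and 0.59).

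Among the basement membrane chains, Col4a1 and Col4a2, which most cells make, rose at 1 day while Col4a5 fell. Col4a1 stood at 62.9, 70.2 and 72.1 FPKM in sham and 130.3, 152 and 156 in MI at 1 day. After 1 week sham held 101, 76.0 and 99.7 and MI 447, 482 and 429. After 8 weeks sham held 74.2, 73.8 and 80.7 and MI 61.7, 107 and 154. The groups were apart at the first 2 stages and overlapped at the last, where MI 1 was below all sham libraries. Differences were 1.08 ± 0.22 (adjusted p = 3.71e-04) at 1 day, 2.29 ± 0.22 (adjusted p = 7.68e-08) at 1 week and 0.40 ± 0.22 (adjusted p = 0.104) at 8 weeks. Col4a2, the partner of Col4a1, had 48.5, 54.1 and 53.8 FPKM in sham and 95.7, 111 and 112 in MI at 1 day. Sham libraries of 1 week had 66.8, 54.5 and 70.8 and MI libraries 311, 337 and 307. It had 51.9, 51.5 and 55.6 and 53.6, 81.3 and 121 at 8 weeks, when the groups overlapped. Its differences were 1.01, 2.30 and 0.60, all called (2.14e-04, 1.84e-08 and 0.0100 as adjusted p), and the call at 8 weeks was lost without MI 3 (0.31, adjusted p = 0.0599) and with all 3 other scalings, of which median-ratio factors gave -0.11.

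Col4a5, a chain of the type IV network of kidney, lung and smooth muscle, was lower at 1 day. It had 6.36, 7.39 and 6.95 FPKM in sham and 2.62, 1.89 and 3.36 in MI, a difference of -1.14 ± 0.15 (adjusted p = 6.54e-06), and every MI library was below every sham library. At 1 week it had 5.74, 5.96 and 5.5032 in sham and 35.8, 35.2 and 32.5 in MI, and at 8 weeks 4.67, 4.77 and 4.64 and 8.51, 10.6 and 14.9. Now every MI library was above every sham library, by 2.40 (adjusted p = 1.44e-09) and 1.08 (adjusted p = 1.37e-05). The change of the MI effect from 1 day to 1 week was itself called (3.54 ± 0.22, adjusted p = 6.76e-09). Smooth muscle and pericyte markers, 6 genes, gave 0 higher and 3 lower at 1 day and 3 higher and 2 lower at each later stage; their part was not tested.

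Col4a3 and Col4a4, which form a trimer with Col4a5, stayed low, and their highest mean was in MI of 8 weeks. Col4a3 had 0.817, 0.632 and 0.760 FPKM in sham and 1.0463, 0.749 and 1.36 in MI at 1 week. Sham libraries of 8 weeks had 0.459, 0.447 and 0.462 and MI libraries 1.15, 2.54 and 2.84. Col4a4 had 1.33, 1.0030 and 0.829 and 1.38, 1.10 and 1.81 at 1 week, and 0.714, 0.634 and 0.647 and 1.24, 2.77 and 3.07 at 8 weeks. The groups overlapped at 1 week and were apart at 8 weeks. At 1 week neither was called (0.23, adjusted p = 0.180; 0.24, adjusted p = 0.199), and all 3 other scalings turned the sign, with both called lower after quantile normalization (-0.39 and -0.47). At 8 weeks both were higher (1.08, adjusted p = 1.96e-05; 0.97, adjusted p = 1.19e-04). Col4a6 was at most 0.132 FPKM in sham and at 1 day and had 2.83, 2.55 and 2.30 in MI of 1 week and 0.847, 1.30 and 3.47 in MI of 8 weeks, both called higher. At 1 day all MI libraries of these 3 chains were below all sham libraries, and none was called in the joint fit. Col4a4 was called lower at 1 day with quantile normalization (-0.51, adjusted p = 7.41e-04), median-ratio factors (-0.47, adjusted p = 0.00434) and the authors' values (-0.46, adjusted p = 0.00110), and Col4a3 with the first (-0.30, adjusted p = 0.0117) and the last (-0.26, adjusted p = 0.0180) of these. With each stage fitted alone all 3 were called lower. Endothelial markers, 7 genes, gave 4 higher and 2 lower early, then 4 and 1, and 1 and 1 at the late stage; their part in the type IV values was not tested.

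Type VI collagen forms beaded filaments that link cells to the interstitium, and its chains Col6a1 and Col6a2 were lower at 1 day and higher afterwards. Col6a1 stood at 13.6, 14.7 and 17.5 FPKM in sham and 7.73, 6.11 and 7.96 in MI at 1 day. In the 1-week groups the FPKM were 24.6, 20.4 and 23.4 (sham) and 266, 277 and 281 (MI). In the 8-week groups the FPKM were 13.5, 14.2 and 14.2 (sham) and 48.0, 81.8 and 164 (MI). The groups did not overlap at any stage, with MI below sham at 1 day and above it later. The differences were -0.98 ± 0.28 (adjusted p = 0.00485), 3.54 ± 0.28 (adjusted p = 8.34e-09) and 2.55 ± 0.28 (adjusted p = 8.95e-07). Col6a2 had 12.6, 14.014 and 16.9 in sham and 8.30, 7.30 and 8.25 in MI at 1 day. The middle stage gave 24.3, 18.9 and 23.0 in sham and 223, 233 and 240.2 in MI. The late stage gave 12.9, 12.5 and 14.4 in sham and 38.6, 72.4 and 138 in MI. Its pattern of overlap was the same, and its differences were -0.79, 3.34 and 2.38 (adjusted p = 0.0216, 2.10e-08 and 2.56e-06); the first call was lost without sham 3 (-0.68, adjusted p = 0.0767) or without MI 2 (-0.73, adjusted p = 0.0630).

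Col6a3, the longest of the classical type VI chains, was not called at 1 day. It had 4.20, 5.32 and 5.55 FPKM in sham and 6.37, 6.40 and 7.17 in MI, all MI libraries above all sham libraries, with a difference of 0.35 ± 0.28 (adjusted p = 0.271; called higher with each stage fitted alone). It was called higher at 1 week (3.49) and 8 weeks (1.73). Col6a6, a later-described relative of Col6a3, had 0.420, 0.476 and 0.934 FPKM in sham and 0.0865, 0.0514 and 0.0506 in MI at 1 day, a difference of -0.59 ± 0.25 (adjusted p = 0.0493) that was lost in 6 of 6 fits without 1 of these libraries. After 1 week sham held 1.01, 1.34 and 0.745 and MI 0.730, 0.561 and 0.614. It was called at neither later stage. Col6a5 was at most 0.0276 FPKM in all sham and 1-day libraries, had 1.55, 1.27 and 0.928 in MI of 1 week and 1.78, 2.43 and 9.51 in MI of 8 weeks, and was called higher at both (1.13 and 2.21).

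Type VIII collagen, a short-chain network collagen of vessel walls and of the cornea, was higher at every stage for 1 of its chains and at the later stages for both. Col8a1 stood at 3.89, 4.46 and 4.74 FPKM in sham and 11.3, 10.9 and 10.7 in MI at 1 day. Sham libraries of 1 week had 9.59, 5.26 and 8.05 and MI libraries 536, 479 and 388. After 8 weeks sham held 2.80, 3.80 and 3.44 and MI 25.7, 56.9 and 97.5. Every MI library was above every sham library at each stage, by 1.16 ± 0.32 (adjusted p = 0.00406), 5.78 ± 0.32 (adjusted p = 3.96e-10) and 3.62 ± 0.32 (adjusted p = 1.21e-07). Its partner Col8a2 was not called at 1 day, when the highest library had 0.0918 FPKM. In the 1-week groups the FPKM were 0.569, 0.326 and 0.587 (sham) and 63.3, 54.6 and 59.4 (MI). It had 0.0516, 0.0531 and 0.0642 and 11.966, 22.2 and 48.6 at 8 weeks, the largest collagen difference of that stage (4.54 ± 0.30, adjusted p = 7.18e-09).

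FACIT collagens sit on the surface of fibrils. Col12a1 had the largest collagen rise at 1 day, from 0.107, 0.112 and 0.118 FPKM in sham to 1.63, 1.98 and 1.49 in MI (1.28 ± 0.34, adjusted p = 0.00352). The middle stage gave 0.356, 0.208 and 0.424 in sham and 73.2, 77.1 and 49.2 in MI. Sham libraries of 8 weeks had 0.0902, 0.0707 and 0.0869 and MI libraries 3.12, 8.85 and 17.5. MI was above sham without overlap at each stage, and the later differences were 5.64 (adjusted p = 8.86e-10) and 3.07 (adjusted p = 1.27e-06). Col14a1, which binds fibrils through decorin, had 1.51, 1.92 and 2.06 FPKM in sham and 0.950, 0.837 and 0.926 in MI at 1 day, below sham in every library but not called (-0.57 ± 0.33, adjusted p = 0.137). It was called lower with quantile normalization (-0.68, adjusted p = 0.0368), median-ratio factors (-0.68, adjusted p = 0.0278), the authors' values (-0.66, adjusted p = 0.0479) and each stage fitted alone. After 1 week sham held 3.31, 3.02 and 3.08 and MI 222, 200.5 and 200.4. In the 8-week groups the FPKM were 1.33, 1.23 and 1.19 (sham) and 16.4, 40.6 and 78.0 (MI). The groups were far apart at both stages, by 5.65 (adjusted p = 6.13e-10) and 4.10 (adjusted p = 5.76e-08). Col16a1 overlapped at 1 day and was higher later (5.09 and 3.36).

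The multiplexins Col15a1 and Col18a1 lie at the outer face of basement membranes, and endostatin is cut from the end of Col18a1. Col15a1 stood at 10.5, 11.7 and 13.960 FPKM in sham and 14.4, 13.7 and 14.7 in MI at 1 day. Sham libraries of 1 week had 23.0, 17.8 and 22.3 and MI libraries 155, 180.0 and 168. The late stage gave 13.9, 13.5 and 14.2 in sham and 23.8, 44.1 and 64.3 in MI. It overlapped at 1 day only (0.23, adjusted p = 0.387) and was higher by 2.94 (adjusted p = 8.48e-09) and 1.49 (adjusted p = 2.79e-05) later. Col18a1 had 2.71, 3.04 and 2.91 FPKM in sham and 5.68, 8.47 and 6.91 in MI at 1 day. In the 1-week groups the FPKM were 2.90, 2.36 and 2.53 (sham) and 63.8, 65.4 and 48.6 (MI). After 8 weeks sham held 1.64, 1.94 and 1.95 and MI 11.2, 14.8 and 27.3. MI was above sham in every library of each stage, by 1.03 ± 0.22 (adjusted p = 5.59e-04), 4.06 ± 0.22 (adjusted p = 3.60e-10) and 2.63 ± 0.22 (adjusted p = 7.98e-08).

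Of the other tested chains, Col7a1, which forms the anchoring fibrils of skin, had at most 0.105 FPKM outside the later MI libraries, 3.25, 3.85 and 2.43 in MI of 1 week and 0.325, 0.314 and 0.395 in MI of 8 weeks. Col23a1, a transmembrane chain, and Col28a1 were called higher at both later stages, with differences between 0.52 and 1.25. The 9 genes that did not pass the filter, Col9a3, Col11a2, Col13a1, Col17a1, Col19a1, Col20a1, Col22a1, Col25a1 and Col26a1, reached at most 1.33 FPKM, and 10 of their 162 values were listed at 0. Without the filter, 1 of them was called higher at 1 day (Col17a1) and 1 lower (Col13a1), where 34.3% and 26.9% of all genes in that fit were. At 1 week 4 were higher (Col9a3, Col11a2, Col22a1 and Col26a1) and 0 lower, with 66.0% and 14.9% over all, and at 8 weeks 5 were higher (Col9a3, Col11a2, Col13a1, Col20a1 and Col22a1) and 0 lower, with 64.8% and 9.15% over all. Col22a1, a chain of the muscle-tendon junction, had 0.207, 0.259 and 0.272 FPKM in MI of 1 week and 0.472, 0.880 and 0.626 in MI of 8 weeks, and the highest sham or 1-day value was 0.158. The part of the skeletal muscle markers, given above for the MI libraries of 8 weeks, in this value was not tested.

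The MI effect, the signed difference of MI minus sham, moved up from 1 day to 1 week for 30 of 32 collagen genes. It moved down for 0 (0 also at an unadjusted p under 0.05 in limma). Over all tested genes it moved up for 60.0% and down for 11.8%. For a gene that is lower in MI, a move down is a deeper decrease. These shares therefore do not count effects that became larger or smaller in size. The largest move up among the collagens was in Col1a1 and Col1a2, 6.71 ± 0.52 (adjusted p = 5.02e-08) and 6.71 ± 0.51 (adjusted p = 4.15e-08). Col6a1 and Col6a2, lower at 1 day and higher at 1 week, changed by 4.51 (adjusted p = 1.32e-07) and 4.13 (adjusted p = 4.27e-07). From 1 week to 8 weeks the effect moved down for 24 genes and up for 2, Col4a3 and Col4a4. Over all tested genes it moved down for 29.9% and up for 17.1%. All 10 tested fibrillar and all 4 tested FACIT genes were among the 24. Both comparisons share the MI and sham libraries of 1 week.

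In FPKM, the MI mean at 8 weeks was 8.06% of the MI mean at 1 week for Col1a1, 11.039% for Col1a2 and 12.3% for Col3a1. It was 23.8% for Col4a1, 35.7% for Col6a1 and 46.7% for Col8a2. Over the tested genes it ran from 7.37% (Col11a1) to 73.1% (Col4a6), except for 5 genes with a higher mean at 8 weeks, Col4a3, Col4a4, Col6a5, Col6a6 and Col23a1. These were named after their values were seen. The change of the MI effect was called for Col4a3 (0.85 ± 0.23, adjusted p = 0.00706) and Col4a4 (0.73 ± 0.25, adjusted p = 0.0249), the second not in 3 of the fits that leave out 1 library. For Col8a2 the reduction was not called (-0.79 ± 0.42, adjusted p = 0.129), in contrast to Col8a1 (-2.16 ± 0.45, adjusted p = 0.00156); whether both differ was not tested. Col6a1 was just within the threshold (-0.99, adjusted p = 0.0478), a call lost in 11 of the 12 fits that leave out 1 library and kept without MI 3 of 8 weeks, and Col6a2 just outside it (-0.97, adjusted p = 0.0591). Without MI 3 of 8 weeks the effect moved down for 27 genes and up for 3, and 28 were higher than sham at 8 weeks in place of 30. The shares over all tested genes in that fit were not computed, so these counts have no background beside them.

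Sham libraries were compared between stages to show how far the collagens moved without an infarct. In all sham groups Col1a1 lay between 10.9 and 43.3 FPKM and Col3a1 between 26.4 and 86.8 FPKM. The 3 sham libraries of 1 week were the highest of the 9 for both genes and for Col1a2, without overlap with the other stages. In the fit to all libraries 0 collagen genes were called between 1 week and 1 day (0.459% higher and 0.957% lower over all genes) and 0 higher and 1 lower between 8 weeks and 1 week (0.420% and 0.428%), with 5 higher and 0 lower, and 0 higher and 11 lower, at an unadjusted p under 0.05. The 1 gene was Col3a1 (-1.60 ± 0.33, adjusted p = 0.0372), which was lost in every fit without 1 of these libraries. With the sham libraries fitted alone, a choice made after the data were seen because the spread of the MI libraries enters the joint fit, 17 were higher and 1 lower at 1 week against 1 day (3.49% and 7.59% over all genes) and 0 higher and 18 lower at 8 weeks against 1 week (2.53% and 7.77%). Col1a1 differed by 1.13 between 1 week and 1 day, with an adjusted p of 0.171 in the joint fit and 0.00107 in the sham fit, and Col1a2 by 1.04, with 0.213 and 2.23e-04. Whether the operation, age or stage moved them cannot be told apart.

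Chains that join in 1 molecule or 1 fibril were also compared by the ratio of their FPKM, which are corrected for length. Type I is built from Col1a1 and Col1a2, and their ratio was 0.816, 0.764 and 0.817 in sham and 1.0455, 1.09 and 1.0046 in MI at 1 day. At 1 week it was 0.865, 0.781 and 0.939 in sham and 1.13, 1.14 and 1.07 in MI. At 8 weeks it was 0.770, 0.817 and 0.855 in sham and 0.840, 0.774 and 0.823 in MI. The ratio was higher in every MI library at the first 2 stages and overlapped at 8 weeks. The ratio of Col1a1 to Col3a1 was 0.456, 0.371 and 0.518 in sham and 0.873, 0.955 and 0.726 in MI at 1 week and 0.413, 0.426 and 0.474 in sham and 0.537, 0.543 and 0.571 in MI at 8 weeks, without overlap, and it overlapped at 1 day. The ratio of Col4a1 to Col4a2 was 1.30, 1.30 and 1.34 in sham and 1.36, 1.36 and 1.40 in MI at 1 day, higher in every MI library. It was 1.43, 1.43 and 1.45 in sham and 1.15, 1.32 and 1.28 in MI at 8 weeks, lower in every MI library, and it overlapped at 1 week.

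The ratio of Col5a1 to Col5a2 was lower in MI at each stage, with 0.823, 0.827 and 0.861 in sham and 0.409, 0.349 and 0.387 in MI at 1 day, 0.775, 0.791 and 0.715 in sham and 0.523, 0.572 and 0.564 in MI at 1 week, and 1.01, 0.868 and 0.898 in sham and 0.469, 0.435 and 0.400 in MI at 8 weeks. The ratio of Col6a1 to Col6a2 was 1.08, 1.0477 and 1.04 in sham and 0.932, 0.837 and 0.964 in MI at 1 day, lower in every MI library. At 1 week it was 1.01, 1.08 and 1.02 in sham and 1.19, 1.19 and 1.17 in MI, higher in every MI library, and at 8 weeks the groups overlapped. Col8a1 to Col8a2 was 54.4, 71.6 and 53.6 in sham and 2.15, 2.57 and 2.0046 in MI at 8 weeks. Col8a2 was near 0 in sham at 8 weeks (0.0516 to 0.0642 FPKM) and in all libraries of 1 day (at most 0.0918 FPKM), so the ratios of both stages rest on values near 0. With 1 added to each FPKM the difference of log2 ratios moved from -4.73 to -0.92 at 8 weeks and from 2.67 to 1.22 at 1 day. The Col8 ratio at 1 week was 16.8, 16.1 and 13.7 in sham and 8.47, 8.77 and 6.54 in MI, lower in MI, but in the same way its difference turned from -0.98 to 0.45. In 14 of the 18 ratio and stage pairs the groups did not overlap. Each of these gave p = 0.1 in the two-sided exact permutation test, the smallest that 3 against 3 libraries allow. So none can pass 0.05, and adjusted over the 18 tests this p was 0.129. For ratios of other gene pairs the share without overlap was not computed. Among single genes, 45.4% of all tested had MI above sham and 35.9% below without overlap at 1 day. These shares were 74.8% and 17.4% at 1 week and 66.3% and 10.9% at 8 weeks.

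**Figure D5:**
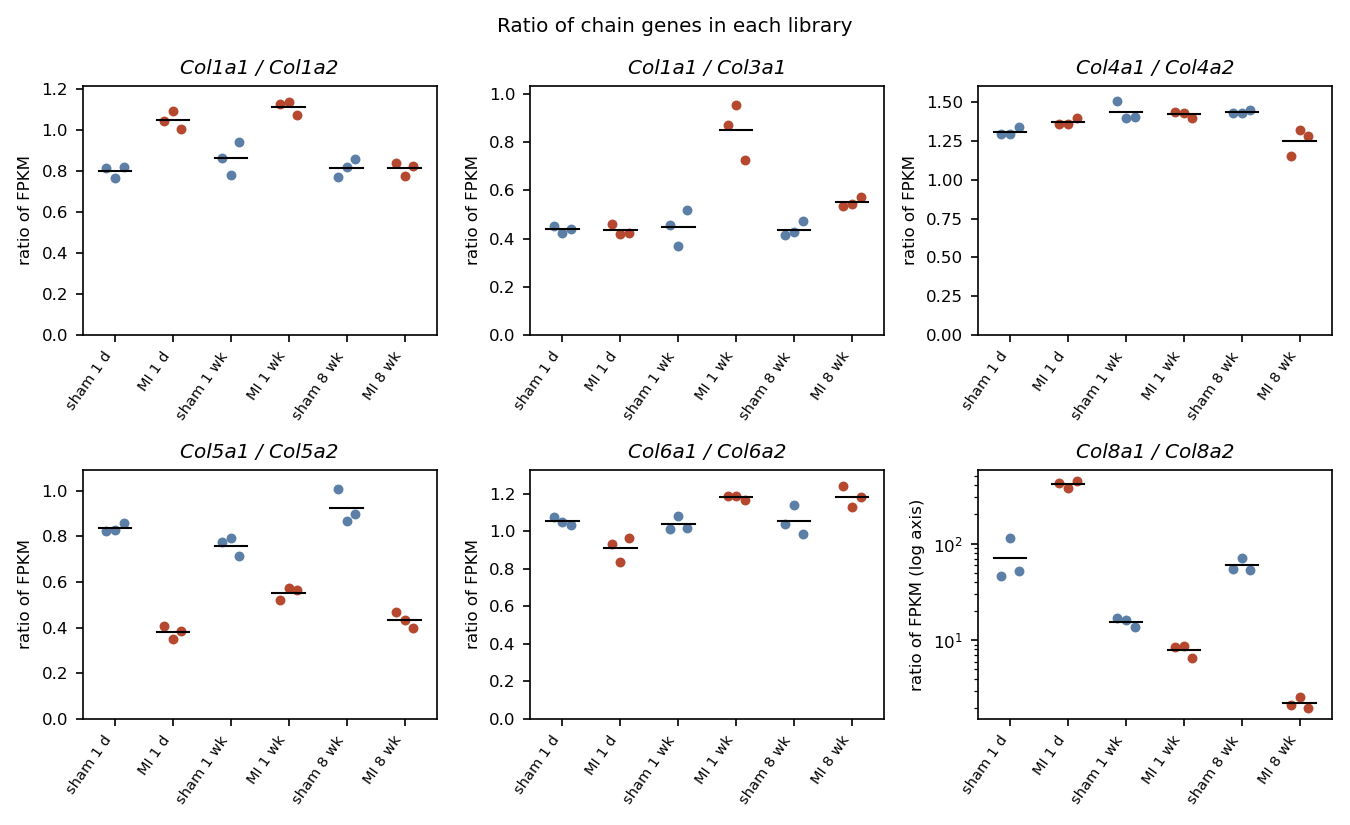
Ratio of the FPKM of 2 chain genes in each library (points; sham blue, MI red) with the group mean (bar), for 6 pairs; the axis for Col8a1 and Col8a2 is logarithmic, the others start at 0. MI lies below sham at each stage for Col5a1 and Col5a2, and the ratio of Col1a1 to Col3a1 is highest in MI at 1 week, 0.726 to 0.955.

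Collagens need dedicated enzymes and chaperones, and genes of 3 lists, chosen by function, were counted beside them. The shares over all tested genes to read these counts against are 39.7%, 72.8% and 70.4% higher and 30.6%, 16.5% and 10.6% lower at the stages in turn. Of 13 tested genes for folding and modification, the early stage had 8 higher and 1 lower, the middle stage 12 and 0, and the late stage 11 and 0. Serpinh1, the collagen chaperone HSP47, had 90.7, 72.2 and 102 FPKM in sham and 803, 837 and 598 FPKM in MI at 1 week (3.06 ± 0.22, adjusted p = 3.99e-09), and P4ha3, a prolyl hydroxylase subunit, and Fkbp10, a prolyl isomerase, had the largest differences of the list there (5.23 and 3.74). Of 12 genes for procollagen processing and crosslinking, 5 were higher and 1 lower at 1 day and 12 higher at each later stage. Lox, which starts crosslinking, stood at 1.07, 1.47 and 1.68 FPKM in sham and 25.8, 19.5 and 16.4 in MI at 1 day (3.14 ± 0.37, adjusted p = 1.65e-06), a stage at which Col1a1 and Col3a1 were not called. At 1 week it stood at 3.68, 2.45 and 3.66 and 485, 424 and 357 (6.64), and Bmp1, the C-proteinase of procollagen, at 6.51, 5.84 and 6.33 and 132, 126 and 100.009 (4.05). Lox is also 1 of the 8 activated fibroblast markers. Of 8 genes for collagen receptors and uptake, 3, 8 and 7 were higher at the stages in turn and 0 lower, among them Ddr2, a receptor for fibrillar collagens, with 0.90, 2.05 and 1.62. The integrin chain Itga11 and the uptake receptor Mrc2 had 4.45 and 4.17 at 1 week.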

How the data were processed

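Total RNA from the left ventricles was sequenced after selection of mRNA, and the 18 libraries formed 6 groups of 3 by their labels. Per the labels and processing notes, the authors aligned reads to mm10 with TopHat2 2.0.13 and Bowtie2 2.2.3 and estimated transcript levels with Cufflinks 2.2.1. They deposited FPKM per gene, and beside it log2 values that they had normalized between libraries, which were used as an alternative only. Columns with the authors' own fold changes and p-values were not used. No read counts were used, so the depth is unknown and no count test was run.

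The 12858 genes that reached 1 FPKM in 3 or more libraries were tested in R 4.3.3 with limma 3.58.1 on log2(FPKM + 1), with an intensity trend, 1 fit of 6 groups and 12 residual degrees of freedom. P-values were adjusted by the Benjamini-Hochberg method over all tested genes, and a gene was called at an adjusted p below 0.05. Ratios of chains were compared by two-sided exact permutation tests. Python 3.11.15 with pandas 2.3.3, numpy 2.4.6 and matplotlib 3.10.9 was used for the rest. Promoter sequences came from RefSeq.

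The members, classes, marker lists and pathway lists were chosen with earlier results of these data known. Values in each library are given for 10 well known chains, for the 5 called chains with the largest difference at each stage, for chains called in opposite directions at different stages, and for Col3a1 in sham; others were named after their values were seen. Alternatives were another pseudocount, other filters, 3 other scalings, each stage fitted alone, a replicate block, no trend and leaving out each library; the sham libraries fitted alone were added after the data were seen.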

Additional observations from a re-analysis of the deposited data

Results flagged for a closer look

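The effect of MI differed between stages by a test of the difference itself, within 1 limma fit. As a signed difference of MI minus sham, it moved up from 1 day to 1 week for 30 of the 32 tested collagen genes. It moved down for 0. Over all tested genes 60.0% moved up and 11.8% down. From 1 week to 8 weeks it moved up for 2 collagen genes and down for 24, where 17.1% of all tested genes moved up and 29.9% down. Both sets of differences share the libraries of 1 week.

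Col4a5, Col6a1 and Col6a2 were lower than sham at 1 day and higher at 1 week, and the change of their MI effect was 3.54, 4.51 and 4.13 on the log2 scale. The basement membrane chains Col4a3 and Col4a4 had a larger MI effect at 8 weeks than at 1 week, by 0.85 and 0.73. No cause was tested.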

How the results depend on the processing

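The counts at 1 week and 8 weeks kept their direction. With the replicate block, 7 collagen genes were called higher and 3 lower at the early stage. The middle stage gave 29 and 0 and the late stage 30 and 0. The block lost only Col6a6 at 1 day (limma adjusted p = 0.0561). Same-numbered libraries of MI and sham correlated at -0.09 to 0.29 in their deviations. With 3 libraries per group these values cannot decide whether the numbers pair them, and the main fit did not. The 4 lower genes at 1 day became 7 with a pseudocount of 0.1, 8 with quantile normalization, 7 with median-ratio factors, 8 with the authors' normalized values, 10 with each stage fitted alone, and 2 to 3 when 1 library was left out. The 0 lower genes at 1 week became 3, 1, 3 and 1 with quantile normalization, median-ratio factors, the authors' values and each stage alone. At 8 weeks, 19 were higher when a mean of at least 5 FPKM was required, which leaves fewer genes, and 1 was lower with quantile normalization. The 2 genes with a larger MI effect at 8 weeks than at 1 week became 4 without a filter, 0 with a mean of at least 5 FPKM, and 1 to 5 when 1 library was left out (1 without sham 1 or MI 2 of 1 week, 5 without MI 1 of 8 weeks). In sham at 1 week against 1 day, 0 higher became 1 (pseudocount 0.1), 2 (quantile), 5 (median-ratio), 2 (authors' values) and 17 (sham alone), and 0 lower became 1 (sham alone). At 8 weeks against 1 week, 1 lower became 4 (pseudocount 0.1), 0 (no filter), 3, 4 and 3 (the scalings in the same order), 18 (sham alone) and 0 to 0 when 1 library was left out. The causes were not tested. Shares over all tested genes were computed at 1 day for the other scalings and each stage alone, and for sham alone. The other alternative counts here have no such share beside them. How the counts of higher genes at 1 week and 8 weeks stand beside all genes under the other scalings was not computed.

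Signs turned, in the order quantile, median-ratio, authors' values, for Col4a3 (-0.39, -0.20, -0.36) and Col4a4 (-0.47, -0.27, -0.45) at 1 week, for Col5a3 (-0.16, -0.087, -0.16) and Col6a6 (-0.44, -0.14, -0.40) at 8 weeks, and for Col6a6 (-0.11, -0.026, -0.13) between 1 day and 1 week. With median-ratio factors Col4a1 and Col4a2 at 8 weeks gave -0.31 and -0.11. Quantile normalization and the authors' values gave -0.11 and -0.11 for Col5a1 at 1 day, and -0.089 and -0.10 for Col4a3 between 1 day and 1 week. With 1 library left out, Col6a6 at 8 weeks ranged from -0.20 (without MI 3) to 0.55 (without MI 1). The median difference of MI minus sham over all tested genes at 1 week was 0.79 in log2(FPKM + 1). It was 0.03 after quantile normalization, so small differences depend on the scaling.

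The main limits are 3 libraries per group, pooled tissue, an unknown depth and the spread of the MI libraries of 8 weeks.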
